A study of Rattus norvegicus with 18 samples.

Results

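Potassium channel genes were examined in rat primary Schwann cells, the glia that wrap and myelinate peripheral axons, grown to passage 3 either without an addition (control) or with vitamin C (VitC). The set was every gene symbol beginning with Kcn in the study's list of hydroxymethylated DNA peaks. It held 74 of the 16140 symbols in that list and 611 of its 215951 peaks. Each group had 3 libraries of RNA, 3 of DNA immunoprecipitated with an antibody to 5-hydroxymethylcytosine (hMeDIP) and 3 of genomic input DNA, 18 libraries in all. The labels give no vitamin C dose, duration, rat strain or age, and do not say that replicates came from separate cultures, so every p-value here reflects variation among these libraries alone, possibly technical in origin. A further 21 protein-coding Kcn genes of the RefSeq annotation (assembly GRCr8), Kcna1, Kcnb2, Kcnd2 and Kcnj2 among them, had no peak under that symbol and were not analysed here.

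Kcn genes encode the pore-forming subunits of potassium channels and some of their partners. Kcna, Kcnc, Kcnd, Kcnh and Kcnq subunits form voltage-gated channels, Kcnj subunits inward rectifiers, Kcnk subunits tandem-pore leak channels, and Kcnma, Kcnn and Kcnt subunits channels gated by intracellular calcium or sodium. Kcnab, Kcne, Kcnip and Kcnmb proteins are auxiliary subunits, and Kcng, Kcnf, Kcns and Kcnv subunits are silent on their own and modify other voltage-gated channels. In Schwann cells, potassium currents set the membrane potential and have been tied to proliferation, and inward rectifiers such as the Kcnj10 product take up potassium released by axons. Vitamin C is a cofactor of the TET enzymes, which convert 5-methylcytosine to 5-hydroxymethylcytosine, and it is routinely used to start myelination in Schwann cell cultures.

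Promoter sequences are shown for 5 members on which later results turn. RNA of Kcnk13 and Kcnq5 rose and that of Kcnj10 fell, while Kcnj14 and Kcnab2 carried a changed hMeDIP peak next to a listed start. The genome build of the peak list is not given, so these sequences were not matched to its starts or peaks. Each line gives 250 bases before to 50 bases after the transcription start from RefSeq (GRCr8), 5′ to 3′ on the gene's strand, with CG dinucleotides, the sites of most cytosine methylation, in capitals.
Kcnk13: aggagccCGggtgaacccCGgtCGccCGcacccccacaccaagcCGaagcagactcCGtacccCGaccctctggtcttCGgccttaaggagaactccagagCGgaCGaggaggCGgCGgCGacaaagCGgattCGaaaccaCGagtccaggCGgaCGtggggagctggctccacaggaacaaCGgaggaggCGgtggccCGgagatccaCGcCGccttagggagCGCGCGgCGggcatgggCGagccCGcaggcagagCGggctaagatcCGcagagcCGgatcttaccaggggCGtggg
Kcnq5: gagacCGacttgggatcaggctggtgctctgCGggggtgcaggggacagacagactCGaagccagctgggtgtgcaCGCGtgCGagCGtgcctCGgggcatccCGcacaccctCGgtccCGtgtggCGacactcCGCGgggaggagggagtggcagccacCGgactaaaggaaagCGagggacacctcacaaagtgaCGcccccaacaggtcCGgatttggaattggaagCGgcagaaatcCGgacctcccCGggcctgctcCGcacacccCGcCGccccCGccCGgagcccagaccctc
Kcnj10: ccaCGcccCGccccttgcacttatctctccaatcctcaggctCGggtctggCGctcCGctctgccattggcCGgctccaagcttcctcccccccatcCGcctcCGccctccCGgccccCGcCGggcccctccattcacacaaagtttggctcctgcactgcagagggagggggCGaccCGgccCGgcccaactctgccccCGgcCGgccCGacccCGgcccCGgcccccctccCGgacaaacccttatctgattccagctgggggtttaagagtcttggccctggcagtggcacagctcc
Kcnj14: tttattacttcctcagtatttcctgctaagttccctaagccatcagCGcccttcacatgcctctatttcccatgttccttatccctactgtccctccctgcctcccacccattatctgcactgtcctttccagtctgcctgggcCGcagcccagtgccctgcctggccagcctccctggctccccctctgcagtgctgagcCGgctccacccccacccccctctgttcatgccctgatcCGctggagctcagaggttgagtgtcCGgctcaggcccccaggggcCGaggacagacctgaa
Kcnab2: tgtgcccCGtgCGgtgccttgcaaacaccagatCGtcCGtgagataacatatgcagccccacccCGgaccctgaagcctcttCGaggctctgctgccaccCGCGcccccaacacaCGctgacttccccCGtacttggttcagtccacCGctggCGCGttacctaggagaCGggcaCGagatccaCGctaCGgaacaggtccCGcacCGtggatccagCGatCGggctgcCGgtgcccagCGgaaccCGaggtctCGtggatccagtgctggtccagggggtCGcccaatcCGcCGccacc

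Of the 74 members, 51 had a RefSeq promoter in the table used and 47 had exactly 1. These 47 held a median of 18 CG dinucleotides in 300 bases, against 7 over all 33465 promoters. The Kcnk13 promoter (chr6:124971559-124971858, plus strand) held 33, Kcnab2 (chr5:168270711-168271010, minus strand) 28, Kcnq5 (chr9:31891232-31891531, minus strand) 26, Kcnj10 (chr13:87334260-87334559, plus strand) 20 and Kcnj14 (chr1:105437209-105437508, minus strand) 6. Among the 8 members with a single promoter whose RNA rose, the median was 28 (range 6 to 48). It was 20 (9 to 32) for the 3 whose RNA fell, 11.5 (1 to 28) for the 4 tested that did not pass and 14.5 (2 to 46) for the 32 with too few reads to test. These ranges overlap, and promoters of all genes were not split by RNA call. A link between CG content and the RNA change was not tested. On either strand the letters ACAAAG, the core bound by SOX factors, occurred in 6 of the 47 (Kcnab1, Kcnk13, Kcnmb4, Kcnq5, Kcnj10 and Kcnh1), and in 18.8% of all promoters. The AP-1 letters TGACTCA occurred in 1 (Kcne1; 4.63% of all), and the EGR letters GCGTGGGCG in none (0.544% of all).

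RNA libraries held 23381814 to 33173282 reads in genes, hMeDIP libraries 24020306 to 39899445 reads in peaks and input libraries 7201638 to 9521037. The VitC 1 RNA library stood apart, with chi-square values per degree of freedom of 27.4 and 38.3 against its group's other libraries (5.26 between those), and 44.9% of its reads aligned at several places (34.4% and 32.7% in VitC 2 and 3, 36.5% to 42.5% in controls). Schwann cell markers were abundant in all 6 RNA libraries (9 genes, summed to 12114 to 12420 CPM, read counts scaled to library size, in control and 11550 to 12306 in VitC). Of those 9, 2 rose and 3 fell, the latter S100b, Erbb3 and Cryab. Markers of other cells also moved: 6 of 6 tested skeletal muscle genes rose (summed range 125 to 179 CPM in control, 541 to 567 in VitC), as did 4 of 5 pericyte and smooth muscle genes (820 to 844 against 1107 to 1300). Of the 4 fibroblast genes tested, Col1a1 rose and Pdgfra, Pi16 and Gsn fell, with Dpt and Dcn at 0. Neuron, macrophage, endothelium, perineurium and melanocyte lists had 5, 1, 1, 4 and 2 tested genes, of which 1, 0, 1, 2 and 1 rose and 2, 0, 0, 2 and 1 fell. The endothelial marker Cdh5 and the melanocyte marker Mlana were at 0 in every library. Their part in the Kcn results was not tested. In bulk RNA, fewer cells of a type and less RNA per cell cannot be told apart.

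Vitamin C was accompanied by higher RNA of 14 Kcn genes and lower RNA of 6, out of 30 with enough reads to test. Rises included Kcnk13, a tandem-pore channel of the halothane-inhibited kind, Kcnq5, a subunit of M-type channels, and Kcnn3, a small-conductance calcium-activated channel. The largest fall was in Kcnt1, a sodium-activated channel. Calls are at an adjusted p under 0.05 in edgeR's quasi-likelihood test with Benjamini-Hochberg adjustment over 12925 genes. Of all genes tested 40.1% passed, against 66.7% of the 30 members. For rises the shares were 19.1% and 46.7%, and for falls 21% and 20%. The members' median log2 fold change was 0.41, and that of all tested genes -0.01. VitC and control libraries did not overlap for any of the 20 called members. The share without overlap among all called genes was not counted, so this adds nothing to the calls. Some called members, Kcnk13 and Kcnk1 among them, had enough reads to test only in VitC, so only a rise could be called. Of the 44 untested members, 32 had at most 5 reads in each library, 7 had 0 in every library and the highest count was 18.

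**Figure D1:**
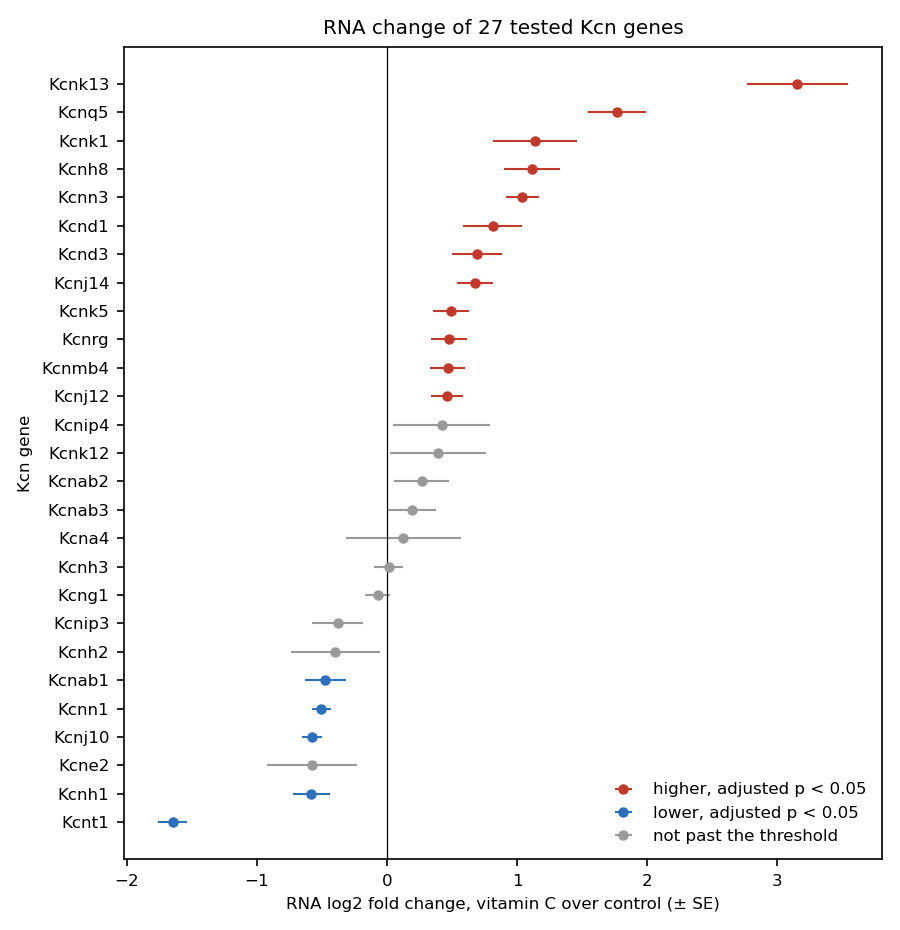
RNA log2 fold change of 27 of the 30 tested Kcn genes, vitamin C over control, ordered by size; points are edgeR estimates and bars their standard errors. Red points (12) passed as higher, blue (5) as lower and grey (10) did not pass; Kcnk13 (3.16) and Kcnt1 (-1.65) lie at the ends.

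Among Kcnq genes, Kcnq5 (ENSRNOG00000013781; listed span chr9:27565869-27761365, genome build not given in the sources used here) was at 1.06, 0.738 and 0.921 CPM in control and 3.78, 2.53 and 2.92 CPM in VitC (log2 fold change 1.77 ± 0.22, SE, n = 3 per group, edgeR adjusted p = 0.000408). Its 3 VitC libraries were all above its controls. Kcnq3, which pairs with it in neuronal M-type channels, had at most 6 reads. Kcnq1, the cardiac and epithelial member, had 5 to 11 reads.

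Of the silent subunits, Kcng1 was the only one tested and did not pass (39.2 ± 0.82 CPM in control, 37.3 ± 5.43 in VitC, SD, n = 3, adjusted p = 0.581). Without the VitC 1 library Kcng1 passed as lower (log2 fold change -0.20, adjusted p = 0.0142). In the A-type group, Kcnd3 (chr2:207923775-208140727) was at 57.1, 56.8 and 59.0 CPM in control and 128, 80.9 and 70.7 CPM in VitC. The VitC 1 value was the highest, and the log2 fold change of 0.69 ± 0.19 (adjusted p = 0.0196) became 0.40 without that library (adjusted p = 0.0003). Leaving out any 1 control ended the Kcnd3 call (adjusted p = 0.0662 to 0.0687). Kcnd1 rose from 0.964 ± 0.221 to 1.68 ± 0.223 CPM (0.81 ± 0.23, adjusted p = 0.0209), a call lost without control 2 (0.0861).

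The Kcnh genes, the ether-a-go-go family, moved in both directions. Kcnh8 was at 3.51, 3.84 and 3.85 CPM in control and 11.1, 7.15 and 6.12 CPM in VitC (1.11 ± 0.21, adjusted p = 0.00383; 0.83 without VitC 1). Kcnh1, which has been linked to cell proliferation, fell from 7.36 ± 0.609 to 4.91 ± 0.821 CPM, the highest VitC library (5.49) below the lowest control (6.79) (-0.58 ± 0.14, adjusted p = 0.0112). Kcnh2 and Kcnh3 did not pass (adjusted p = 0.383 and 0.94), and Kcnh4, Kcnh5, Kcnh6 and Kcnh7 had at most 9 reads. Kcna4 was the only Shaker-type member tested (0.435 CPM in control and 0.455 in VitC, adjusted p = 0.844), and Kcna2 and Kcna6 had at most 1 read in a library.

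Among tandem-pore channels, Kcnk13 (chr6:123974798-124077197) was at 0.110, 0.207 and 0.209 CPM in control and 2.21, 1.52 and 1.12 CPM in VitC, and had the largest log2 fold change of the members (3.16 ± 0.39, adjusted p = 0.000351). It had 3, 7 and 5 reads in control and 56, 42 and 32 in VitC. It passed the filter on low counts through VitC alone, so a rise was the only call open to it. Kcnk1 was at 0.292, 0.236 and 0.251 CPM in control and 0.473, 0.505 and 0.738 CPM in VitC (1.14 ± 0.32, adjusted p = 0.022). That call was lost without control 2 or 3 or VitC 3 (adjusted p = 0.0589 to 0.0881). With 8, 8 and 6 reads in control and 12, 14 and 21 in VitC, Kcnk1 too was tested only through VitC. Kcnk5, an acid-sensitive channel, rose from 2.71 ± 0.163 to 3.83 ± 0.444 CPM (0.50 ± 0.14, adjusted p = 0.0211), a call lost without control 1 or 3 or VitC 2 (0.0609 to 0.0859). Kcnk12 did not pass, and Kcnk2 and Kcnk10, mechanosensitive channels, had at most 3 reads in a library.

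In the inward rectifiers, Kcnj10 (chr13:90723092-90752581) was at 12.9, 12.7 and 13.5 CPM in control and 9.10, 8.45 and 8.61 CPM in VitC, so every VitC library was below every control (-0.58 ± 0.08, adjusted p = 0.000715). Kcnj14 rose from 2.32 ± 0.0195 to 3.72 ± 0.408 CPM (0.68 ± 0.14, adjusted p = 0.00494) and Kcnj12 from 12.9 ± 1.89 to 17.8 ± 1.67 CPM (0.46 ± 0.12, adjusted p = 0.0162). The Kcnj12 call was lost without VitC 2 (0.055). Kcnj11, a subunit of ATP-sensitive channels, was too low to test, with 2, 3 and 3 reads in control and 7, 11 and 11 in VitC; it passed as higher when no filter on low counts was used (1.88 ± 0.55, adjusted p = 0.017). Kcnj13 had no read.

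The channels gated by intracellular ions split by gene. Kcnt1 (chr3:3310954-3365340) was at 14.4, 12.9 and 15.2 CPM in control and 5.00, 4.15 and 4.39 CPM in VitC (-1.65 ± 0.11, adjusted p = 1.17e-05), with no VitC library above 5.00. Its paralogue Kcnt2 had at most 7 reads. Of the small-conductance calcium-activated channels, Kcnn3 (chr2:188844073-188988774) was at 10.2, 10.2 and 11.2 CPM in control and 26.1, 19.3 and 19.5 CPM in VitC (1.04 ± 0.13, adjusted p = 0.000332). Kcnn1 moved the other way, from 21.8, 22.1 and 23.4 CPM to 15.1, 15.6 and 16.7 CPM (-0.50 ± 0.07, adjusted p = 0.000819). Kcnn2 and Kcnn4 had at most 14 reads, and so did the large-conductance pore Kcnma1 (1 to 13 reads).

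Of the auxiliary subunits, Kcnmb4, a beta subunit of Kcnma1 channels, was at 7.23, 6.64 and 6.91 CPM in control and 10.9, 7.69 and 10.2 CPM in VitC (0.47 ± 0.13, adjusted p = 0.0244). The call was lost without any 1 control or VitC 3 (0.0538 to 0.0908). Kcnab1, a cytoplasmic subunit of Kcna channels, fell from 4.28 ± 0.47 to 3.06 ± 0.499 CPM (-0.48 ± 0.16, adjusted p = 0.0413), lost without any 1 control or VitC 2 (0.052 to 0.133). Kcnrg, a regulator of Kcna assembly, rose from 3.36 ± 0.47 to 4.71 ± 0.249 CPM (0.48 ± 0.14, adjusted p = 0.0221), lost without control 2 or 3 or VitC 2 (0.0587 to 0.0623). Kcnab2 (3.18 CPM in control and 3.83 in VitC), Kcnab3 (1.24 and 1.41), Kcne2 (0.868 and 0.597), Kcnip3 (1.98 and 1.52) and Kcnip4 (0.415 and 0.540) did not pass (adjusted p = 0.157 to 0.46). In all, 12 of the 20 calls held in every one of 12 alternatives, among them Kcnk13, Kcnq5, Kcnn3, Kcnh8, Kcnj14, Kcnt1, Kcnj10, Kcnn1 and Kcnh1. Without VitC 1 there were 15 higher and 7 lower calls.

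**Figure D2:**
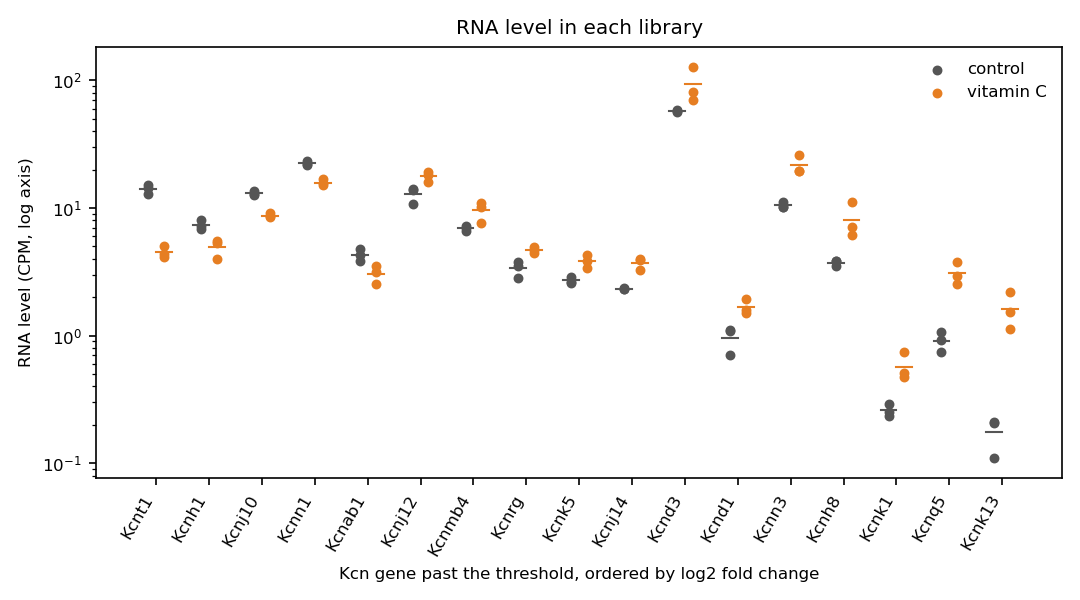
RNA level in CPM (log axis) of 17 of the 20 Kcn genes past the threshold; each point is 1 library (3 control, 3 vitamin C) and each short line a group mean. The groups do not overlap for any gene drawn, but genes were drawn because they passed the threshold. The VitC 1 library is the highest of Kcnd3 at 128.

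A wider list of 63 genes of potassium transport and channel assembly gives the setting of these changes. Of 39 tested, 16 rose and 6 fell (median log2 fold change 0.18), against 19.1% and 21% of all genes tested. Fxyd1, a regulator of the sodium-potassium pump, rose from 23.9 ± 1.77 to 148 ± 20.5 CPM (2.63 ± 0.11, adjusted p = 1.81e-06), and the pump subunit Atp1b3 fell (467 to 270 CPM, -0.79 ± 0.06, adjusted p = 2.09e-05). Another pump subunit, Atp1b1, was scarce and rose from 0.126 ± 0.0365 to 0.934 ± 0.266 CPM (2.82 ± 0.39, adjusted p = 0.000635). Atp1b1 had enough reads to test only in VitC, so only a rise could be called. Adam23, a partner of LGI proteins, rose from 39.9 ± 1.14 to 90.3 ± 15.4 CPM (1.18 ± 0.11, adjusted p = 8.08e-05). Lrrc55, an auxiliary subunit of Kcnma1 channels, fell from 50.5 ± 7.17 to 24.8 ± 5.19 CPM (-1.03 ± 0.16, adjusted p = 0.00117).

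Hydroxymethylated DNA was measured over the 611 peaks that the list assigns to these genes. Most lie in gene bodies (547), with 49 labelled within 3 kb of a start, 10 within 1 kb and 5 proximal to it. Exons and introns are not told apart in the list, and coordinates are printed as it gives them. The 8 genes with the most peaks held 261 of them, and the median gene held 4.5. Kcnd3 had 48, Kcnn3 35, Kcnip1 34, Kcnh1 33, Kcnh8 30 and Kcnq1 28. Replicates 1 and 3 of each hMeDIP group differed by less than the sampling noise (chi-square per degree of freedom 0.963 in control and 0.896 in VitC) and were counted as 1 sample, so each hMeDIP comparison has n = 2 per group.

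In vitamin C cells 182 of the 611 peaks gained hMeDIP reads and 271 lost them at an adjusted p under 0.05 (edgeR's quasi-likelihood test). Of all 215951 peaks 73.2% passed, against 74.1% of Kcn peaks. By direction, 29.8% of Kcn peaks rose against 36.9% of all peaks and 44.2% of peaks with a gene, and 44.4% fell against 36.3% and 28.7%. In gene bodies 29.8% rose and 44.2% fell, against 44.5% and 28.4% of all gene-body peaks. The median log2 fold change was -0.10 for Kcn peaks, 0.05 over all peaks and 0.17 over peaks with a gene. Scaling by all counted reads instead of reads in peaks raised the median of all peaks from 0.05 to 0.49 and turned the Kcn split to 317 higher and 192 lower (60.1% and 23.6% of all peaks; 68% and 16.5% of peaks with a gene). By that scaling 83.8% of all peaks and 83.3% of Kcn peaks passed in either direction. Of the 271 lower peaks 192 passed as lower under both scalings. All 182 higher peaks passed as higher under both. Reads in peaks were 30.8% to 35.7% of counted reads in control and 40.8% to 43.9% in VitC, and the part of this in the result was not tested.

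The deposited list passes through the genome in one run of 68432 peaks and a second of 147519, with no stated reason, and direction followed the run. Of 238 Kcn peaks in the first run, 213 fell and 3 rose (Kcnj10, Kcnk5 and Kcnab1), with a median of -1.01. Of 373 in the second, 179 rose and 58 fell, with a median of 0.24. Over all peaks with a gene, 83% fell and 4.24% rose in the first run, against 89.5% and 1.26% of Kcn peaks. In the second run 57.1% rose and 11.2% fell, against 48% and 15.5%. Under scaling by all counted reads the second run had 80.2% of Kcn peaks higher and 2.95% lower (85.3% and 1.66% of all peaks with a gene). The first run then had 7.56% higher and 76.1% lower (14.2% and 62.6%). The first run held 39% of Kcn peaks and 24.4% of all peaks with a gene. Members too low to test in RNA had 51% of their 247 peaks in the first run, against 41.9% for all untested genes (137 lower and 54 higher in both runs). Their shares were 55.5% lower and 21.9% higher, against 47% and 26.4% of peaks of all untested genes. Tested members had 30.8% of 364 there, against 20.5% for all tested genes. In both runs 134 of the 364 were lower and 128 higher, or 36.8% and 35.2%, against 24.6% and 48.2% of peaks of all tested genes. Split by run as well, second-run peaks of untested members rose at 44.6% (44.5% of all) and fell at 14.9% (14.6%). Those of tested members rose at 49.6% (59.2%) and fell at 15.9% (10.6%). In the first run 94.4% of peaks of untested members fell (92.1%) and none rose (1.29%), and 83.9% of peaks of tested members fell (78.8%) and 2.68% rose (5.59%). The part of the run in these results was not tested.

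**Figure D3:**
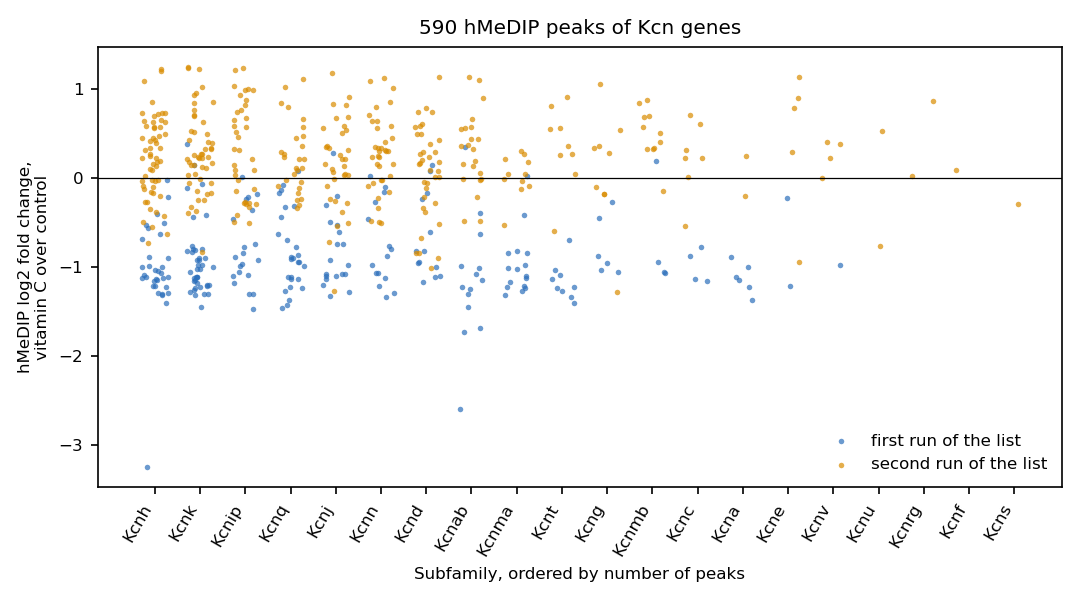
hMeDIP log2 fold change, vitamin C over control, of 590 of the 611 Kcn peaks by subfamily (ordered by number of peaks; sideways position within a column is random), coloured by run of the deposited list. First-run peaks lie mostly below 0 (204 of the 229 drawn passed as lower), and 174 of the 361 second-run peaks drawn passed as higher.

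By subfamily the balance depended on the scaling, and each count reads against the 44.2% of all peaks with a gene that rose and the 28.7% that fell (68% and 16.5% by all counted reads). Kcna peaks fell at 7 of 8 and rose at none (6 in the first run), and by all counted reads 6 fell and 1 rose. Kcnma1 peaks fell at 16 of 27 and rose at 1 (16 in the first run), but by all counted reads 14 fell and 11 rose. Kcnmb rose at 9 of 15 and fell at 3 (12 and 3 by all counted reads). In Kcnh, Kcnk, Kcnq and Kcnj more peaks fell than rose by reads in peaks, and more rose than fell by all counted reads. Kcnh had 26 higher and 40 lower of 90, then 46 and 26. Kcnk had 26 and 43 of 89, then 44 and 35. Kcnq had 13 and 31 of 67, then 35 and 21, and Kcnj 16 and 24 of 53, then 26 and 14. Kcnn had 21 and 18 of 51, then 33 and 10, and Kcnt 6 and 10 of 18, then 8 and 8.

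Of peaks of all genes untested in RNA 47% fell, and several members with little RNA lost signal at most of their peaks. Kcnt2 lost signal at 7 of 7 peaks, Kcnh5 at 6 of 6 and Kcnk9 at 5 of 5, all in the first run. Kcnk2, a mechanosensitive leak channel, fell at 14 of 19, Kcnq3 at 7 of 9, Kcnk10 at 6 of 7 and Kcna6 at 4 of 4. Kcnk2, Kcnq3, Kcnk10 and Kcna6 had 14, 7, 6 and 3 of their peaks in the first run. In that run 92.1% of peaks of all untested genes fell, so such falls are not particular to these members. RNA of these 7 genes reached at most 7 reads in a library. Others with as little RNA went both ways: Kcnip1, at most 5 reads, rose at 13 of 34 peaks and fell at 13. The clearest fall by p-value was a Kcnk9 gene-body peak (chr7:113927382-113930144). It was at 24.5 CPM (libraries 1 and 3 summed) and 26.4 CPM (library 2) in control, and 12.1 and 10.8 CPM in VitC (-1.11 ± 0.06, adjusted p = 3.22e-19). Relative to input, by all counted reads, it went from 5.96 and 5.66 to 3.74 and 3.33, so it remained enriched. A Kcng1 peak (chr3:165028917-165030132), which lies in the second run, fell from 10.5 and 11.9 to 4.50 and 4.51 CPM (-1.28 ± 0.09). Other falls among the 6 of smallest p included a second Kcnk9 peak (chr7:113925802-113927132, -1.31 ± 0.09), Kcnab2 (chr5:169640006-169641699, -0.99 ± 0.07) and Kcnj12 (chr10:47284120-47285265, -1.27 ± 0.09). Of the 14 peaks of Kcnk1, which rose in RNA, 4 fell and 7 rose.

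Several genes had more rises than falls. Over all peaks with a gene 44.2% rose and 28.7% fell, and 57.1% and 11.2% in the second run. Kcnk5 rose at 10 of 16 peaks and fell at 3, Kcnmb4 rose at 9 of 14 and fell at 2, and Kcnt1 and Kcnn4 each rose at 6 of 11 and fell at 3. Kcnt1 and Kcnn4 had only 2 peaks each in the first run, so their rises lie near the second-run share. Kcne1, an auxiliary subunit of Kcnq1 channels, rose at 3 of 3 peaks, all in the second run. The smallest p among rises was a Kcnk5 gene-body peak 12 kb from a start (chr15:4566195-4566986), at 2.13 and 2.64 CPM in control and 5.44 and 5.41 CPM in VitC (1.25 ± 0.12, adjusted p = 8.34e-12). Its ratio to input, by all counted reads, rose from 2.17 and 1.84 to 6.15 and 7.21. A Kcnj10 peak (chr13:90728996-90731464) rose from 8.02 and 8.25 to 13.2 and 12.9 CPM (0.69 ± 0.07, adjusted p = 3.68e-11), although Kcnj10 RNA fell. A Kcnmb4 peak (chr7:59471457-59472517) rose from 4.30 and 3.95 to 7.69 and 7.79 CPM (0.88 ± 0.10). The other rises among the 6 of smallest p were in Kcnrg (chr15:41934508-41935585, 0.87 ± 0.10), Kcnk1 (chr19:58837461-58838123, 1.25 ± 0.15) and a second site of Kcnk5 (chr15:4597592-4598144, 1.23 ± 0.14). All 6 lie in the second run.

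**Figure D4:**
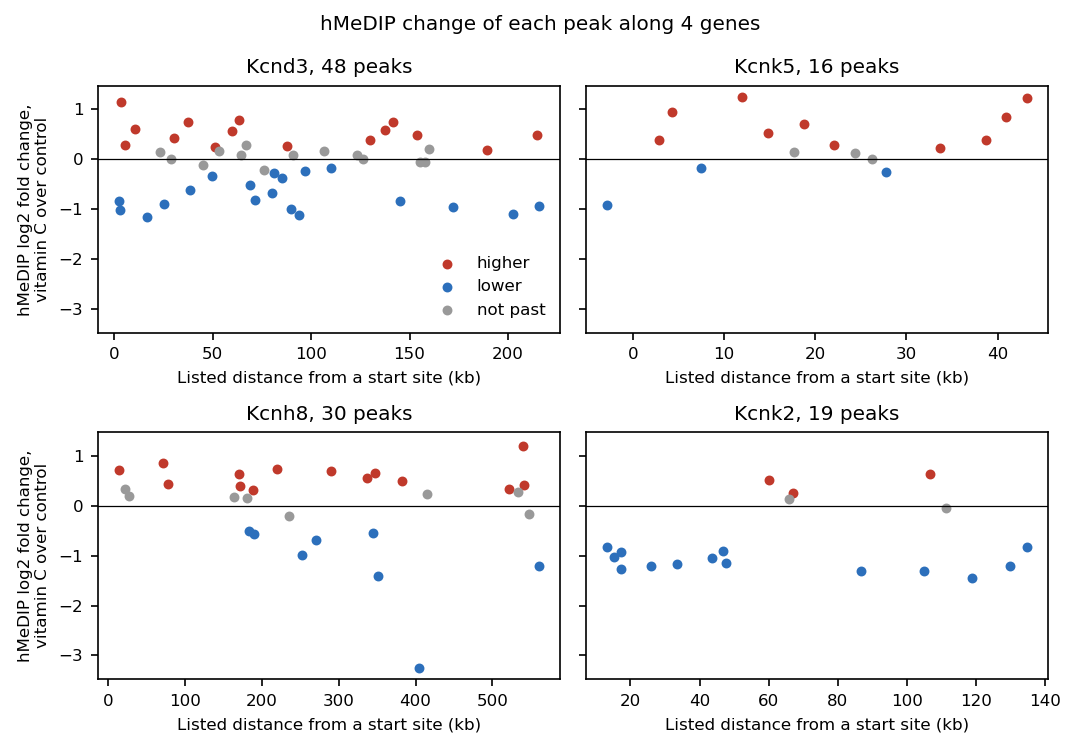
hMeDIP log2 fold change of each peak of Kcnd3, Kcnk5, Kcnh8 and Kcnk2 against its listed distance from a start site in kb; red peaks passed as higher, blue as lower, grey did not pass. Rising and falling peaks are interspersed along Kcnd3 and Kcnh8, 10 of 16 Kcnk5 peaks rose and 14 of 19 Kcnk2 peaks fell. Of all peaks with a gene 44.2% rose and 28.7% fell.

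Called peaks of both directions were found in 37 of the 74 members, some of them long genes. Other long genes held almost only falls: Kcnma1 (703 kb) had 1 higher and 16 lower, and Kcnt2 (390 kb) 0 and 7. Kcnd3 had 15 higher, 19 lower and 14 not past over a 217 kb span, from -1.17 to 1.15, and 28 higher and 11 lower by all counted reads. Of its 48 peaks 12 lie in the first run. Over all peaks with a gene 44.2% rose and 28.7% fell, so both directions within a gene are common. The lowest value of any Kcn peak was in Kcnh8, singled out after the values were seen (chr9:3293652-3294053, gene body, first run). It was at 2.25 and 2.17 CPM in control and 0.249 and 0.198 CPM in VitC (-3.25 ± 0.25, adjusted p = 2.53e-15). Input reads there were 2.34, 2.50 and 2.94 CPM in control and 2.30, 2.24 and 2.88 CPM in VitC. The hMeDIP ratio to input, by all counted reads and not from these CPM, went from 3.29 and 3.03 to 0.469 and 0.463. A Kcnab1 peak (chr2:155901969-155902341) went from 2.57 and 2.21 to 0.354 and 0.496 CPM (-2.59 ± 0.22).

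Of the 10 promoter peaks of smallest p, all labelled within 3 kb and none within 1 kb, 8 fell and 2 rose (Kcnrg and Kcnip3). The label covers both sides of a start. Those at Kcnj12, Kcnd3, Kcnmb2, Kcne4 and Kcnip3 lie 1331 to 2700 bases after the listed start. The 8 falls were at Kcnj15 (-1.20), Kcnc2 (-1.15), Kcnj14 (-1.08), Kcnmb2 (-1.05), Kcne4 (-0.94), Kcnj12 (-1.27) and both Kcnd3 promoter peaks (-1.01 and -0.84); the Kcnip3 rise was from 2.35 and 2.25 to 4.57 and 4.74 CPM. The falls at Kcnj15, Kcnc2, Kcnj14 and Kcnmb2 lie in the first run, where 83% of all peaks with a gene fell. The other falls and both rises lie in the second. Of the 49 peaks within 3 kb, 30.6% rose and 46.9% fell, against 42.3% and 30.3% of all peaks so labelled. Within 1 kb 2 of 10 rose and 4 fell (42.5% and 31.9% of all), and of the 5 proximal peaks 2 rose and 2 fell (47.1% and 23.1% of all). Kcnj14 fell at -296 bases (chr1:101809438-101810242; 5.41 and 4.68 to 3.22 and 2.98 CPM, -0.72 ± 0.12, adjusted p = 4.18e-07) and at -2932 bases (-1.08 ± 0.12), while its RNA rose. Kcnab2 rose at 33 bases (chr5:169630114-169630501; 0.710 and 0.850 to 1.59 and 1.79 CPM, 1.14 ± 0.21, adjusted p = 5.86e-06), and its RNA did not pass. The start used for this Kcnab2 peak lies inside the gene's listed span (chr5:169572517-169658875, minus strand), not at its outer end. Kcnj11 carried a falling peak at -226 bases (-0.50 ± 0.12) and a rising one at -979 bases (0.84 ± 0.16). Falls were also found at Kcnc2 (-303 bases, -1.14 ± 0.16) and Kcnv2 (-767 bases, -0.98 ± 0.14), and a rise at Kcnk7 (-659 bases, 0.94 ± 0.17). Kcnn4 (64 bases) and Kcnh2 (-585 bases) passed as lower at -0.48 and -0.27, but were -0.02 and 0.17 under scaling by all counted reads and did not pass there.

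Input DNA gave no call: 0 of 610 Kcn peaks and 0% of 215759 passed in edgeR's quasi-likelihood test (27 Kcn peaks and 10477 peaks at unadjusted p under 0.05; DESeq2 0, with 4 Kcn peaks unadjusted). Testing hMeDIP over input, 102 Kcn peaks rose and 216 fell (16.7% and 35.4%, against 20.8% and 28.3% of all peaks). Under scaling by all counted reads the split was 228 and 127 (46.3% and 15.7% of all peaks), with 58.1% of Kcn peaks and 62.1% of all peaks past the threshold in either direction; in the main scaling these were 52% and 49.1%. In the first run of the list 0.84% of Kcn peaks rose over input and 77.7% fell (1.91% and 69.8% of all peaks with a gene). In the second 26.8% rose and 8.31% fell (33.9% and 5.52%).

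With reads summed over all peaks of a gene, 12 of 74 members rose and 46 fell (16.2% and 62.2%, against 35% and 39.2% of 16140 genes). In either direction 78.4% passed, against 74.1% of genes. By all counted reads it was 33 and 20 (65.3% and 17% of genes), and 71.6% against 82.3% in either direction. Falls included Kcnt2 (21.7 and 26.6 to 9.99 and 9.42 CPM, -1.27 ± 0.07) and Kcnh5 (-1.21 ± 0.07). Among other members, Kcnk9 (-1.18 ± 0.05), Kcnn2 (-1.07 ± 0.11), Kcnq3 (-0.99 ± 0.06), Kcna6 (-0.88 ± 0.06), Kcnk10 (-0.78 ± 0.05) and Kcnk2 (-0.76 ± 0.04) fell under both scalings. Kcne1 rose under both (0.45 ± 0.06). Kcnip1 (-0.22 ± 0.03) and Kcnq1 (-0.23 ± 0.03), with 34 and 28 peaks, passed as lower and were both 0.23 under scaling by all counted reads, not past. Kcnc1 (-0.09) and Kcnn4 (-0.05) did not pass, but by all counted reads both passed as higher (0.35, adjusted p = 0.00193, and 0.41, adjusted p = 0.000892). Kcnma1 fell by reads in peaks (-0.46 ± 0.04) and not by all counted reads (-0.02). Of the 14 members whose RNA rose, the sum rose in 3 (Kcnk5, Kcnmb4 and Kcnrg), fell in 7 (among them Kcnd1, Kcnd3, Kcnj12, Kcnj14, Kcnk13 and Kcnq5) and did not pass in 4 (among them Kcnh8, Kcnk1 and Kcnn3). Over all genes whose RNA rose, 49.6% of sums rose and 25% fell. By all counted reads the split of the 14 turned to 9 higher and 2 lower (82.5% and 5.39% of all genes whose RNA rose). Kcnd3 (0.31, adjusted p = 0.0224) and Kcnq5 (0.25, adjusted p = 0.0347) then passed as higher, Kcnk13 (0.22) and Kcnj12 (0.14) did not pass, and Kcnd1 (-0.39) and Kcnj14 (-0.47) still passed as lower. Of the 6 whose RNA fell, the sum rose in Kcnj10, fell in 4 (among them Kcnab1, Kcnh1 and Kcnn1) and did not pass in Kcnt1, against 41% higher and 31.6% lower over all genes whose RNA fell. By all counted reads 3 of the 6 were higher and 1 lower (74.4% and 7.82%). Kcnt1 (0.50, adjusted p = 1.29e-05) and Kcnab1 (0.25, adjusted p = 0.0462) then passed as higher, and Kcnh1 (0.15) and Kcnn1 (0.20) did not pass.

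**Figure D5:**
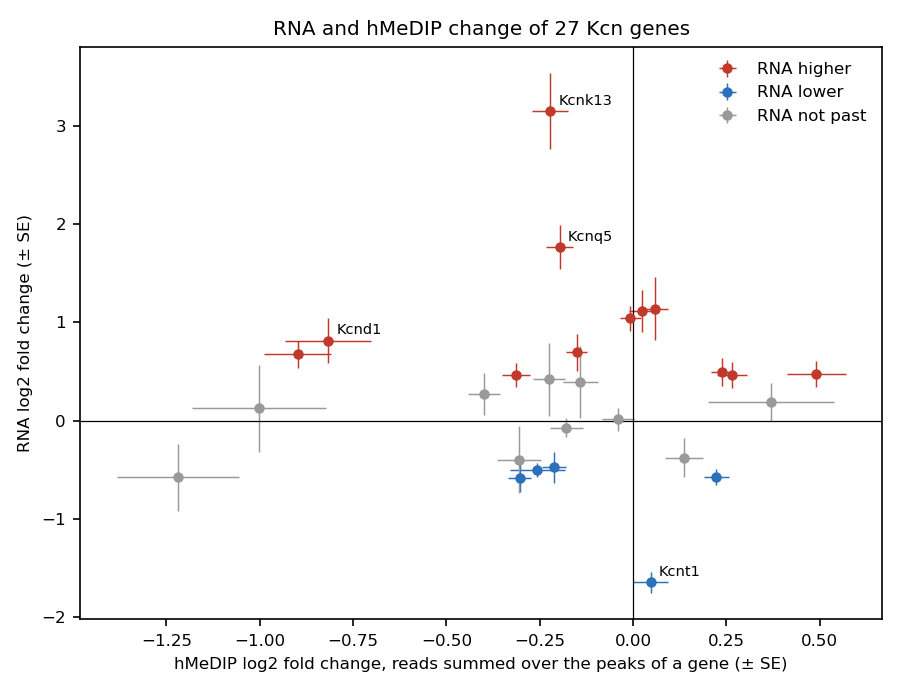
RNA log2 fold change against hMeDIP log2 fold change of reads summed over the peaks of a gene, for 27 of the 30 members tested in RNA; bars are standard errors and colours the RNA call. Kcnk13 (RNA 3.16, sum -0.22) and Kcnj14 (0.68, -0.90) rose in RNA with lower sums, and Kcnt1 (-1.65, 0.05) fell with a sum near 0; by all counted reads, which are not drawn, the sums were 0.22, -0.47 and 0.50.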

How the data were processed

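RNA, hMeDIP and genomic input libraries (3 control and 3 VitC each) were read from count tables the authors deposited: whole-number read counts per gene or per merged hMeDIP peak, with positions and distances in bases in the peak list. Tools listed there without roles, per the submitters' processing notes, are HTSeq, BWA, STAR, Trim Galore and CASAVA 1.4. The genome build, peak caller and merging rule were not given in the sources used here. Symbols come from the peak list. Entries that name no gene took 42.3% to 53.9% of RNA counts, and no peak 56.1% to 69.2% of hMeDIP and 91.3% to 91.6% of input counts, and were left out.

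edgeR 4.0.16 (quasi-likelihood F test, TMM factors, filterByExpr) was fitted on all genes or peaks, with Benjamini-Hochberg adjustment over all of them and a threshold of 0.05. CPM use TMM-scaled totals and are not per length, so levels are not ranked between genes. Standard errors come from the F statistic. hMeDIP replicates 1 and 3 of each group were summed. Input libraries agree within sampling noise for every pair and were kept as 3 in the test of input alone. For ratios to input and the hMeDIP-over-input fit, input replicates 1 and 3 were summed as well. Ratios to input are hMeDIP reads over input reads, each first divided by all counted reads of the same libraries. They are therefore not ratios of the CPM printed here, which rest on reads in peaks. The hMeDIP-over-input fit had a term per sample, which set each hMeDIP library against the input of the same group and number. Control and VitC samples of the same number are not said to be paired and were not paired in the main fits. Correlations of deviations of same-numbered RNA libraries were 0.279, 0.178 and 0.0323, and of hMeDIP libraries -0.0273, -0.205 and -0.113, too few to settle this. Alternatives were DESeq2 1.42.0, other scalings, no filter, a replicate block, 3 libraries per group and each replicate left out; scaling RNA by all counted reads and counts by list run were chosen after seeing the data. The fits were tested on simulated counts. Named were all members called in RNA, a fixed set of channel genes, for hMeDIP 6 rises and 6 falls of lowest p, 10 promoter peaks likewise and the members with most peaks. Members and lists were chosen with earlier results of these data known. Counts cover all members; values of some genes chosen by these rules are not reported here.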

Additional observations from a re-analysis of the deposited data

How the results depend on the processing

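Scaling by all counted reads was the choice that moved most counts. It gave 1642 RNA genes higher and 1117 lower over all genes (2473 and 2715 as reported), 129858 peaks higher and 51017 lower over all peaks, and 317 Kcn peaks higher. For hMeDIP over input it gave 100081 and 33978 peaks (Kcn 228 and 127), and for gene sums 10543 and 2740 genes (Kcn 33 and 20). It turned the gene sum to a positive log2 fold change in Kcnab1 (0.25), Kcnd3 (0.31), Kcnh1 (0.15), Kcnj12 (0.14), Kcnk13 (0.22), Kcnn1 (0.20), Kcnn3 (0.45) and Kcnq5 (0.25). DESeq2 called 43730 peaks higher over all peaks and 95 among Kcn peaks. The cause was not tested.

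Of the 20 RNA calls, Kcnab1, Kcnk1 and Kcnk5 were lost in DESeq2 (adjusted p = 0.0842, 0.119 and 0.0557), and Kcnab1, Kcnj12, Kcnk5, Kcnmb4 and Kcnrg by all counted reads (0.0947, 0.0687, 0.11, 0.0664 and 0.101). Leaving out 1 replicate gave 10 to 15 higher and 5 to 7 lower Kcn genes in RNA, and over all genes 1710 to 2718 higher and 1784 to 2916 lower, the lowest without control 2. The 20 peaks chosen by p-value kept direction and call in all 13 alternatives. Their choice by p-value in these same data made this likely, and it does not extend to the other called peaks.

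The labels do not say whether control and VitC samples of the same number belong together. With a replicate block, RNA gave 15 higher and 6 lower Kcn genes, hMeDIP 176 and 261 Kcn peaks, gene sums 10 and 46 and input 0; RNA libraries did not all correlate best with their own number. Depth limits the 44 members not tested in RNA, and n = 2 limits hMeDIP.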
